A study of Homo sapiens with 8 samples.

Results

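The transcripts described here are those of the human mitochondrial genome, chosen as every gene in the expression table whose name begins with MT-. They number 37 of the 62649 genes listed, namely 13 mRNAs, 2 rRNAs and 22 tRNAs, and all 37 reached at least 1 TPM (transcript abundance on a scale with a fixed total) in at least 2 libraries. RNA sequencing covered AsPC-1 and PANC-1, established human pancreatic cancer cell lines that both carry the genotype label WT. All cultures grew as spheroids in medium thickened with methylcellulose for 3 days, and each was then exposed for 24 h to vehicle, to 10 µM roseoflavin, to 1 nM trametinib, or to both compounds. Roseoflavin is a riboflavin analogue with antibiotic activity, and trametinib inhibits the MEK kinases of the MAPK pathway. Each of the 4 treatments of each line was represented by 1 library, so no group had replicates. The error behind each p-value below is what the fitted line and compound terms leave over across all libraries, not a spread between replicates.

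The mitochondrial genome is a small circle, present in many copies per cell, that is transcribed from both strands into long precursors. Its tRNAs lie between most of the other genes, and their excision releases the mRNAs and rRNAs, most of which then receive a poly(A) tail. The mRNAs encode subunits of complexes I, III and IV of the respiratory chain and of the ATP synthase (complex V), while the rRNAs and tRNAs serve the ribosomes that translate these mRNAs inside the organelle.

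Sequences from the GENCODE 29 transcripts on GRCh38 show features of these genes, whose effect on the values that follow was not tested. MT-ATP8 and MT-ATP6 share 46 bases, chrM:8527-8572 on the plus strand, and MT-ND4L and MT-ND4 share 7 bases, chrM:10760-10766. How reads that lie in both genes of a pair were counted is not given in the sources used here. In the windows below, the shared bases are in capitals with 15 bases on each side.
MT-ATP8/MT-ATP6: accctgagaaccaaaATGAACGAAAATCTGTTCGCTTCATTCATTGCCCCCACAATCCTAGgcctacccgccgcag
MT-ND4L/MT-ND4: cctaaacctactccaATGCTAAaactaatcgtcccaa

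The library kit selected polyadenylated RNA, and the tails also complete the code of some mitochondrial mRNAs. In 6 of the 13 annotated mRNAs the coding sequence ends in the middle of a stop codon (T or TA, in capitals at the end of the last 20 bases), which is known to be completed by the tail.
MT-ND1: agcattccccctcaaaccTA
MT-ND2: ttttatactaataatcttaT
MT-CO3: catctattgatgagggtctT
MT-ND3: aggattagactgaaccgaaT
MT-ND4: cattaccgggttttcctctT
MT-CYB: caaaatactcaaatgggccT

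Mature tRNAs carry no such tail, and the table does not tell mature tRNAs from precursors or other forms. The most abundant tRNA gene, MT-TL1 (capitals, chrM:3230-3304), follows directly on the last 20 bases of MT-RNR2 (lower case), with no base between them.
MT-RNR2/MT-TL1: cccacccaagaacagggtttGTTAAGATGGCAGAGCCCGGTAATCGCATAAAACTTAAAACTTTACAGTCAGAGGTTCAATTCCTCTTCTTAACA

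TPM values sum to 1000000 in every library, and since they keep no trace of read numbers, sequencing depth is unknown. Markers of cell type told the lines apart: 4 epithelial markers summed to between 5036 and 5902 TPM in AsPC-1 and between 966 and 1054 TPM in PANC-1, and 3 mesenchymal markers to between 668 and 825 TPM and between 3155 and 3415 TPM. KRT19 made up nearly all of the PANC-1 epithelial sums (943 to 1032 TPM). VIM made up nearly all of the mesenchymal sums, with 660 to 816 TPM in AsPC-1 and 3132 to 3391 TPM in PANC-1. Of the markers of other cell types, PTPRC of leukocytes and PECAM1 of endothelium summed to at most 0.038 TPM in any library. COL1A1, a collagen gene of fibroblasts, summed with these 2 genes to between 98.9 and 107 TPM in PANC-1 and at most 0.121 TPM in AsPC-1, and its part in the differences between the lines was not tested. Because the total is fixed, a larger mitochondrial share lowers every other value. The median difference of all 19122 genes tested, AsPC-1 minus PANC-1, was -0.55 on the log2(TPM + 1) scale. It was -0.24 after TPM was rescaled over all other genes and -0.04 after quantile normalization. In bulk RNA, fewer cells of a type and less RNA per cell cannot be told apart, and neither can fewer mitochondrial genomes and less RNA from each.

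The 13 mRNAs made up most of the mitochondrial RNA captured, and they took the larger part of the difference between the lines. Their summed share of all TPM in AsPC-1 was 35.2% with vehicle, 38.2% with roseoflavin, 36.0% with trametinib and 36.0% with both compounds. In PANC-1 it was 22.4%, 20.4%, 21.8% and 19.6% in the same order. The lowest AsPC-1 library was thus above the highest PANC-1 library. The rRNAs took between 3.41% and 4.02% of TPM in AsPC-1 and between 2.06% and 2.41% in PANC-1, and the tRNAs between 1.93% and 2.25% and between 0.888% and 1.04%. For each TPM of the other genes there were between 0.7 and 0.788 TPM of mitochondrial transcripts in AsPC-1 and between 0.295 and 0.344 TPM in PANC-1. None of these summed shares overlapped between the lines.

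**Figure D1:**
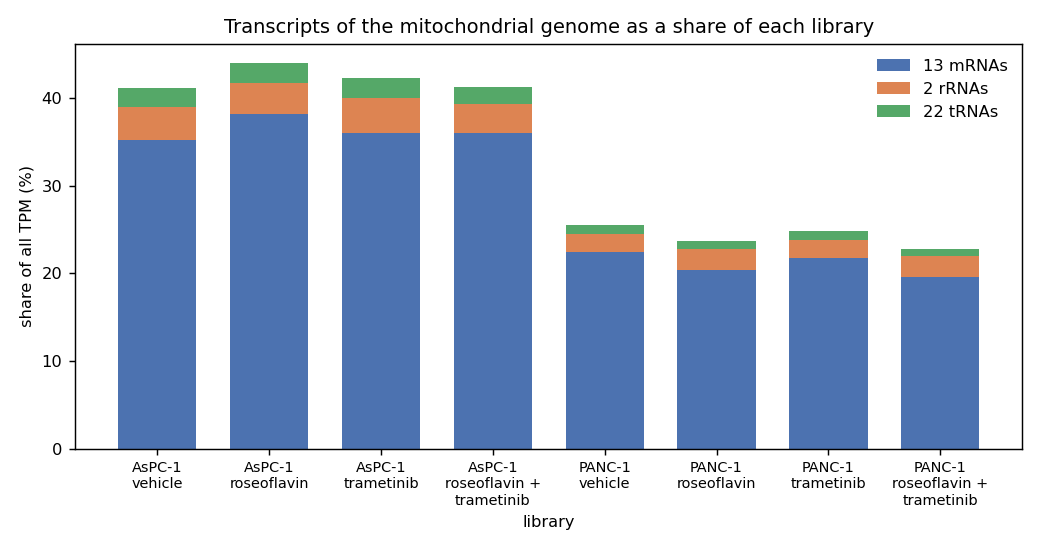
Share of all TPM (y axis, %) taken by the 13 mRNAs (blue), 2 rRNAs (orange) and 22 tRNAs (green) of the mitochondrial genome in each of the 8 libraries (x axis), with 1 bar for 1 library. The mRNA segment is between 35.2% and 38.2% in AsPC-1 and spans only 19.6% to 22.4% in PANC-1.

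Gene by gene, 27 of the 37 mitochondrial genes were higher in AsPC-1 at an adjusted p under 0.05 in limma, 4 were higher in PANC-1 and 6 did not pass. Over all 19122 genes, 21.5% were called higher in AsPC-1 while 62.3% were called higher in PANC-1. All 4 AsPC-1 libraries lay above all 4 PANC-1 libraries for 27 mitochondrial genes (19.8% of all genes), and the reverse held for MT-TM and MT-TY (59.4% of all genes). After rescaling over the other genes the mitochondrial counts were 30 and 1, against 31.0% and 49.6% of all genes, and after quantile normalization they were 22 and 5, against 37.5% and 41.6%. Quantile normalization gives genes of the same rank the same value in every library, so it leaves little room for the most abundant genes to differ in level.

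Of the mRNAs, 12 of 13 were higher in AsPC-1, although quantile normalization left 7 called higher and 5 called lower. The median of the 13 log2 differences was 0.64 as deposited, 1.03 after rescaling and 0.28 after quantile normalization. Without the filter on low values, MT-CO1, MT-CO2, MT-ND4L, MT-ND4 and MT-CYB did not pass (adjusted p 0.0965 to 0.669). The differences ranged widely within this set, from 1.40 for MT-CO3 to 0.06 for MT-ND5, both encoded on the plus strand.

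The ATP synthase mRNAs stood near the top of that range. MT-ATP8 encodes a small membrane subunit of the enzyme and was the most abundant mitochondrial mRNA in AsPC-1, at 77298 TPM with vehicle, 84674 with roseoflavin, 82704 with trametinib and 80121 with both. In PANC-1 it was at 35965, 30907, 34624 and 29754 TPM. Every AsPC-1 library was above every PANC-1 library, and the log2 difference was 1.31 (SE 0.0771, adjusted p 5.15e-06). MT-ATP6, which encodes the subunit that forms the proton path with the rotor ring, was between 39662 and 42835 TPM in AsPC-1 and between 17516 and 21079 TPM in PANC-1. Its log2 difference was 1.09 (SE 0.0707, adjusted p 8.64e-06).

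Complex IV, cytochrome c oxidase, takes its catalytic core from the mitochondrial genome. MT-CO3 was at 46915, 50464, 46648 and 48970 TPM in AsPC-1 (vehicle, roseoflavin, trametinib, both) and at 20401, 17292, 19529 and 16292 TPM in PANC-1. On deposited TPM it had the largest fitted difference of the 13 mRNAs, 1.40 (SE 0.0819, adjusted p 5.05e-06), a ratio of 2.3 between the vehicle libraries. MT-CO1 and MT-CO2, whose products carry the haem and copper centres, differed by 0.59 (SE 0.0534) and 0.64 (SE 0.0547), and these became -0.21 and -0.13 after quantile normalization.

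The 7 mRNAs of complex I, the NADH dehydrogenase, did not share 1 difference. MT-ND3 (1.16), MT-ND2 (1.08) and MT-ND1 (0.76) were higher in AsPC-1 with adjusted p of at most 7.6e-05. MT-ND4 was also higher, by 0.24 (SE 0.0542, adjusted p 0.00503), but lower after quantile normalization (-0.49). MT-ND4L was at 39464, 45616, 42019 and 42203 TPM in AsPC-1 and at 39083, 36187, 37650 and 36241 TPM in PANC-1, in the order given above. The groups did not overlap, but the vehicle libraries were nearly level. Its difference of 0.18 passed narrowly (adjusted p 0.0418), did not pass with a pseudocount of 0.1 (adjusted p 0.111), became -0.78 after quantile normalization, and lost the call when any library other than the vehicle libraries was left out (adjusted p 0.0897 to 0.144).

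MT-ND5, a proton-pumping subunit of the membrane arm, was at 6457, 6680, 6527 and 6199 TPM in AsPC-1 and at 6675, 6008, 6436 and 5746 TPM in PANC-1. The groups overlapped and the difference of 0.06 (SE 0.0496) did not pass (adjusted p 0.303). After rescaling over the other genes it was 0.45 and passed (adjusted p 0.000498), and after quantile normalization it was -0.27. Counting only RNA kept by poly(A) selection, MT-ND6, the mRNA on the opposite strand, had the lowest TPM of the 13. It was at 1177, 1054, 975 and 920 TPM in AsPC-1 and at 742, 719, 795 and 650 TPM in PANC-1, a difference of 0.50 (SE 0.0633, adjusted p 0.000278). MT-CYB, the only mitochondrial mRNA for complex III, was between 9969 and 11623 TPM in AsPC-1 and between 7666 and 9397 TPM in PANC-1, a difference of 0.36 (SE 0.0835, adjusted p 0.00604) that became -0.11 after quantile normalization.

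**Figure D2:**
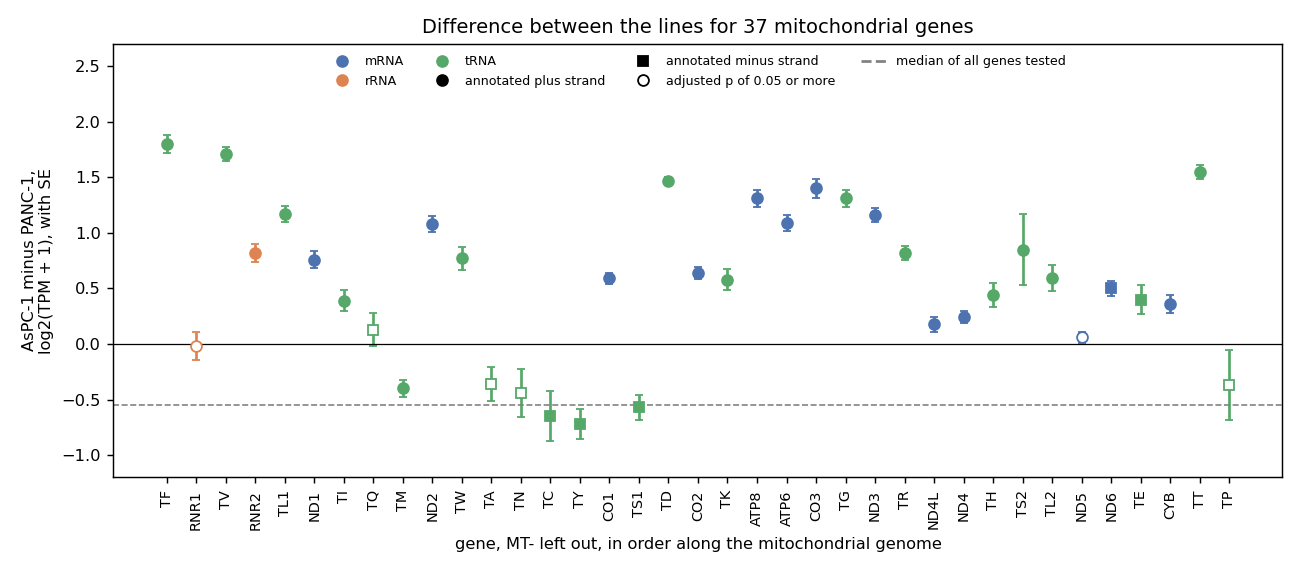
Fitted difference between the lines (y axis, AsPC-1 minus PANC-1 in log2(TPM + 1), bars are SE) for the 37 genes in genome order (x axis), with open symbols for adjusted p of 0.05 or more and a dashed line at the median of all genes, -0.55. MT-CO3, MT-ATP8 and MT-TF lie above 1.3 and MT-ND5 and MT-RNR1 near 0, on deposited TPM, whereas quantile normalization puts 6 mRNAs below 0.

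Since these values move with the mitochondrial total, the make-up of the mRNA pool was also compared, which no rescaling by a common factor can alter. Of the 13 mRNAs, 11 had shares of the 13-mRNA total that did not overlap between the lines, and MT-ND1 and MT-ND6 were the exceptions. These are shares of TPM, and weighting by length, given below, changed the result for MT-ND1 and MT-CO2. By TPM rather than by such shares, all AsPC-1 libraries lay above all PANC-1 libraries for 19.8% of all genes, and below for 59.4%. Groups that do not overlap were thus common between these lines. In AsPC-1 the leading mRNA was MT-ATP8, with between 22% and 23.0% of the pool. In PANC-1 it was MT-ND4L, with between 17.3% and 18.5%, against between 11.2% and 11.9% in AsPC-1. MT-ATP8 took between 15.2% and 16% in PANC-1.

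Summed by complex, the 7 complex I mRNAs took between 29.5% and 30.6% of the pool in the AsPC-1 cultures, whereas in PANC-1 the values were 39.1%, 40.4%, 39.0% and 40.6%. The ATP synthase pair took 33.2%, 33.3%, 34.4% and 33.4% in AsPC-1 against 25.4%, 24.1%, 25.2% and 24.2% in PANC-1. By TPM, complex IV differed less, with between 32.8% and 34.1% against between 31.3% and 31.6%. The complexes were not summed by length-weighted shares, in which short genes such as MT-ATP8 weigh less. PANC-1 thus held relatively more mRNA for complex I and AsPC-1 relatively more for complex V, and this held in each of the 8 libraries.

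The order within complex I did not follow the complex as a whole. MT-ND4L, MT-ND4 and MT-ND5 had larger shares in PANC-1. MT-ND4 was between 10.6% and 11.4% there and between 7.4% and 7.58% in AsPC-1, and MT-ND5 between 2.94% and 2.98% against between 1.72% and 1.83%. MT-ND2 and MT-ND3 had larger shares in AsPC-1, MT-ND2 between 2.61% and 2.73% against between 2.09% and 2.22%. Along the plus strand, the mRNAs with larger shares in AsPC-1 were MT-ND2 and, farther along, the run of MT-ATP8, MT-ATP6, MT-CO3 and MT-ND3. Those with larger shares in PANC-1 were MT-CO1 and MT-CO2, which lie between MT-ND2 and MT-ATP8, and MT-ND4L, MT-ND4, MT-ND5 and MT-CYB. For MT-CO2 this held by TPM but not by length-weighted shares.

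TPM divides by gene length, and MT-ATP8 is only 207 bases long, of which 46 are shared with MT-ATP6. Weighted by length, as shares of bases, MT-CO1 led in both lines (between 19.4% and 20.3% in AsPC-1 and between 20.9% and 21.3% in PANC-1), and MT-ATP8 took 6.26% with vehicle in AsPC-1 against 4.28% in PANC-1. By bases, MT-CO2 overlapped between the lines (10.2% to 10.6% in AsPC-1, 10.3% to 10.9% in PANC-1). MT-ND1 did not (4.36% to 4.58% against 4.06% to 4.33%). With vehicle, MT-CO1, MT-CO2 and MT-CO3 of complex IV took 20.3%, 10.6% and 14.4% of bases in AsPC-1. In PANC-1 they took 20.9%, 10.3% and 9.2%. MT-ATP6 took 10.6% against 8.25%. The members of the overlapping pairs kept steady ratios within a line. MT-ATP8 to MT-ATP6 was between 1.95 and 2.01 in AsPC-1 and between 1.7 and 1.71 in PANC-1. MT-ND4L to MT-ND4 was between 1.5 and 1.59 in AsPC-1 and between 1.56 and 1.65 in PANC-1, so that the lines overlapped for this pair and not for the other.

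**Figure D3:**
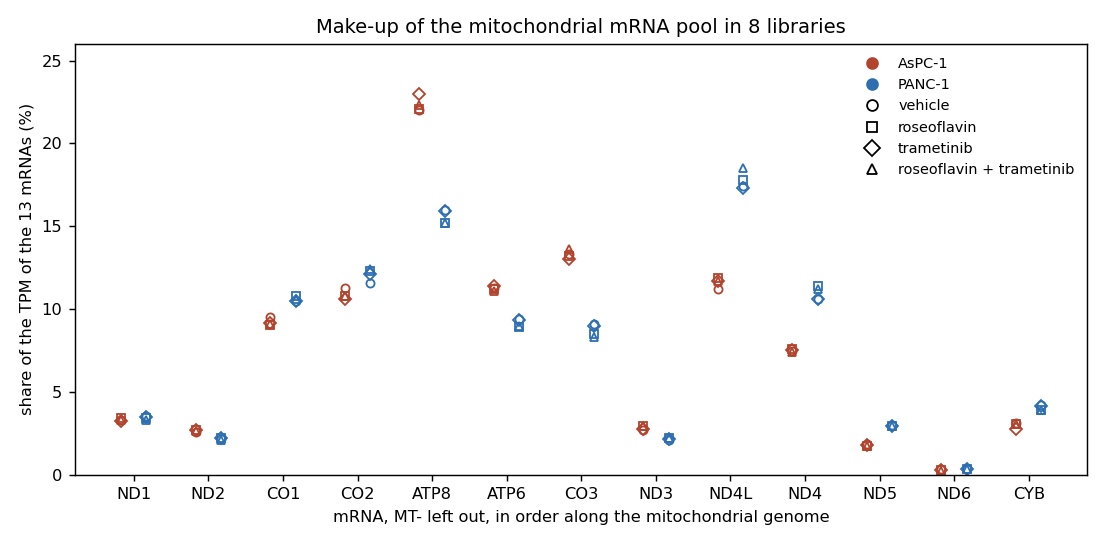
Share of each of the 13 mRNAs (x axis, genome order) in their summed TPM (y axis, %), with 1 symbol for each of the 8 libraries, red for AsPC-1 and blue for PANC-1. MT-ATP8 lies between 22% and 23.0% in AsPC-1 and between 15.2% and 16% in PANC-1, while MT-ND4L lies between 11.2% and 11.9% and between 17.3% and 18.5%.

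The rRNAs form the small (MT-RNR1) and large (MT-RNR2) subunits of the mitochondrial ribosome. Their values count only the RNA kept by poly(A) selection. MT-RNR2 was at 34544, 32958, 36682 and 31421 TPM in AsPC-1 and at 18430, 20452, 17753 and 19956 TPM in PANC-1. Its groups did not overlap, and it was higher in AsPC-1 by 0.82 (SE 0.0791, adjusted p 6.6e-05), although after quantile normalization the difference was 0.096 and did not pass (adjusted p 0.313). MT-RNR1 was at 3409, 3122, 3526 and 2683 TPM in AsPC-1 and at 2912, 3660, 2825 and 3564 TPM in PANC-1. These groups overlapped, and the difference of -0.02 (SE 0.128, adjusted p 0.875) was 0.37 after rescaling, where it passed (adjusted p 0.0288), and 0.14 after quantile normalization, where it did not.

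The rRNAs therefore stood in different proportion in the 2 lines. The ratio of MT-RNR2 to MT-RNR1 was 10.1, 10.6, 10.4 and 11.7 in AsPC-1 against 6.33, 5.59, 6.28 and 5.6 in PANC-1, with no overlap. The ratio of summed rRNA to summed mRNA did overlap. It was 0.108, 0.0943, 0.112 and 0.0948 in AsPC-1 against 0.0951, 0.118, 0.0945 and 0.12 in PANC-1. The higher values in AsPC-1 belonged to the libraries without roseoflavin and the higher values in PANC-1 to those with it. Weighted by length, the rRNAs held between 16.5% and 19.1% of mRNA and rRNA bases in AsPC-1 and between 15.2% and 18.5% in PANC-1.

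**Figure D4:**
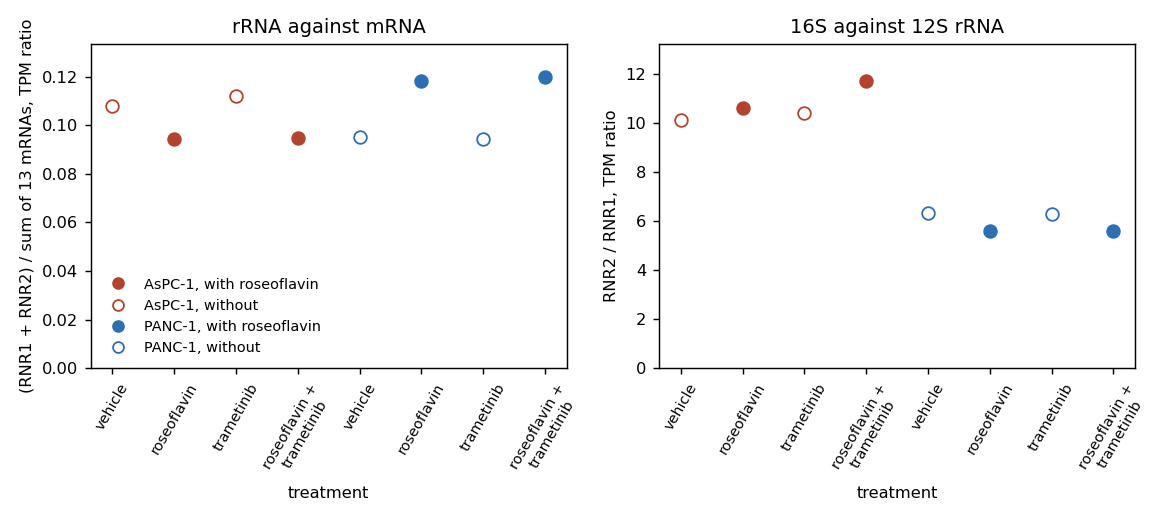
Summed rRNA to summed mRNA (left, TPM ratio) and MT-RNR2 to MT-RNR1 (right, TPM ratio) in each of the 8 libraries (x axis, treatment), red for AsPC-1, blue for PANC-1, filled for roseoflavin. On the left the libraries with roseoflavin are the lower ones in AsPC-1 (0.0943 and 0.0948) and the higher ones in PANC-1 (0.118 and 0.12), and on the right AsPC-1 lies above 10 and PANC-1 below 6.4.

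The tRNA genes divided largely by strand. Of the 14 on the plus strand, 13 were higher in AsPC-1 and MT-TM was lower, while of the 8 on the minus strand 1 (MT-TE) was higher, 3 (MT-TC, MT-TY, MT-TS1) were lower and 4 did not pass. Of all genes, 21.5% were called higher and 62.3% lower, the latter a larger share than among the minus-strand tRNA genes. After rescaling, 13 and 0 of the plus-strand genes were called higher and lower, and 2 and 1 of the minus-strand genes, against 31.0% and 49.6% of all genes. The median log2 difference was 0.84 for the plus strand and -0.40 for the minus strand as deposited, 1.23 and -0.02 after rescaling, and 1.15 and 0.03 after quantile normalization.

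The 4 most abundant tRNA genes were MT-TL1, MT-TF, MT-TV and MT-TT. MT-TL1 was at 9217, 10085, 10011 and 8768 TPM in AsPC-1 and at 4696, 4004, 4467 and 3759 TPM in PANC-1, a difference of 1.17 (SE 0.0718, adjusted p 6.31e-06). MT-TF and MT-TV flank MT-RNR1, the former at chrM:577-647 and the latter at chrM:1602-1670. MT-TF was between 2384 and 3448 TPM in AsPC-1 and between 805 and 971 TPM in PANC-1, a difference of 1.80 (SE 0.0801, adjusted p 1.3e-06). MT-TV differed by 1.71 (SE 0.067, adjusted p 7.13e-07) and MT-TT by 1.55 (SE 0.0605, adjusted p 7.03e-07). The tRNA genes on both sides of MT-RNR1 thus differed between the lines, whereas MT-RNR1 between them had overlapping groups and passed only after rescaling, among the alternatives run.

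Of the other plus-strand tRNA genes, MT-TD (1.47), MT-TG (1.31), MT-TR (0.82) and MT-TW (0.77) were higher in AsPC-1 with adjusted p of at most 0.000332. MT-TL2 (0.59), MT-TK (0.58), MT-TH (0.44) and MT-TI (0.39) were higher with adjusted p of at most 0.00758. MT-TS2 (0.85, adjusted p 0.0408) rested on values between 20.1 and 96.2 TPM and lost its call without any of 5 single libraries, those of AsPC-1 with either or both compounds and of PANC-1 with vehicle or roseoflavin (adjusted p 0.0537 to 0.073).

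The minus-strand tRNA genes were scarce, between 20.2 and 567 TPM. MT-TE, next to MT-ND6, was higher in AsPC-1 by 0.40 (adjusted p 0.0244), a call lost without either vehicle library or either library with trametinib alone (0.0536 to 0.0763). MT-TY (-0.72), MT-TC (-0.65) and MT-TS1 (-0.57) were higher in PANC-1 with adjusted p of 0.0023, 0.033 and 0.00278, and none of these 3 passed after quantile normalization, while after rescaling MT-TY did and MT-TC and MT-TS1 did not (adjusted p 0.289 and 0.176). MT-TC also lost its call without 6 of the 8 libraries in turn, all but those with trametinib alone in PANC-1 and vehicle in AsPC-1 (0.0554 to 0.0977). MT-TM, the exception on the plus strand, was between 267 and 284 TPM in AsPC-1 and between 329 and 422 TPM in PANC-1, a difference of -0.40 (adjusted p 0.00306) that was -0.01 after rescaling (adjusted p 0.919). All 9 minus-strand genes together made up between 0.395% and 0.547% of mitochondrial TPM in AsPC-1 and between 0.616% and 0.694% in PANC-1.

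Copies of mitochondrial sequence in the nuclear genome can receive reads from mitochondrial transcripts. The table lists 402 such copies by name, of which 40 were above 0 in a library and 15 passed the filter, and together they held between 0.101% and 0.221% of all TPM. A block on chromosome 1, between positions 629062 and 634922, holds 7 of them that match their mitochondrial genes at between 97.58% and 98.7% of aligned bases. The 60 bases at the start of MT-ATP6 (chrM:8527-8586) and of its copy MTATP6P1 (chr1:633696-633755) show how little tells them apart, with the differing base in capitals.
MT-ATP6: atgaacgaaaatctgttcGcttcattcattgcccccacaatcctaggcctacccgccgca
MTATP6P1: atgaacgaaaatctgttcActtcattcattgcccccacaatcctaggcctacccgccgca

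MTATP6P1 was at 1704, 1818, 1528 and 1662 TPM in AsPC-1 and at 1008, 884, 1019 and 869 TPM in PANC-1. That was between 3.71% and 5.0% of MT-ATP6, the largest such share in the block. MTND2P28 was at between 1.6% and 2.05% of MT-ND2, and the other 5 copies at 0.14% or less of their genes. Of the 8 most abundant copies, 7 were higher in AsPC-1 (21.5% of all genes), namely MTATP6P1 by 0.83 (SE 0.0754, adjusted p 4.97e-05), MTND2P28 by 1.25 (adjusted p 3.42e-05), MTATP8P1 by 1.30 (3.94e-07), MTCO3P12 by 0.94 (0.00066), MTCO2P12 by 0.60 (0.0056), MTCO1P12 by 0.53 (0.000823) and MTCO1P40 by 0.45 (0.00153). MTND4P12, at between 0.951 and 2.89 TPM, did not pass (0.10, adjusted p 0.684), but did after quantile normalization (0.66, adjusted p 0.0295) and without the PANC-1 library with trametinib (0.34, adjusted p 0.0273). How reads that match a copy as well as its gene were assigned is not given in the sources used here, so the values of these genes and copies are uncertain.

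The nuclear genes that copy, transcribe, process and stabilise the products of the mitochondrial genome, and those for the partner subunits of the same complexes, were taken as 8 lists with 91 genes. Of these, 21 were higher in AsPC-1 (21.5% of all genes) while 54 were higher in PANC-1 (62.3% of all genes), shares near those of all genes. The median difference was -0.29, against -0.55 for all genes. After rescaling, 43 were higher in AsPC-1 (31.0% of all genes) and 29 in PANC-1 (49.6% of all genes), with a median of 0.09 against -0.24. By list, called higher in AsPC-1 and in PANC-1 were 5 and 3 of 11 complex IV subunits, 2 and 4 of 9 complex III subunits, 6 and 8 of 15 complex V subunits and 0 and 6 of 7 complex I core subunits. The machinery lists gave 2 and 6 of 10 for genome maintenance, 1 and 6 of 7 for transcription, 2 and 13 of 16 for RNA processing and modification, and 3 and 8 of 16 for RNA stability. These counts stand against the same 21.5% and 62.3% of all genes, and several are near them. Processing and modification had the lowest median, -0.77 as deposited and -0.40 after rescaling.

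The largest differences upward in AsPC-1 were ATP5F1C, the gamma subunit of the ATP synthase (0.93), TOP1MT, the mitochondrial topoisomerase (0.87), PTCD3, a protein of the mitochondrial ribosome (0.60), UQCRQ of complex III (0.60) and COX7B of complex IV (0.55). ATP5F1C was at 182, 172, 186 and 187 TPM in AsPC-1 and at 86.6, 95.6, 95.7 and 102 TPM in PANC-1. The largest in the other direction were POLG, the catalytic subunit of the polymerase that copies the mitochondrial genome (-1.49), HSD17B10, a subunit of the enzyme that cuts tRNAs from the precursor at their start (-1.48), ATP5MC1, a source of the ATP synthase rotor ring (-1.48), MTO1, which modifies mitochondrial tRNAs (-1.42), and TFB1M, which methylates the small-subunit rRNA (-1.33). POLG was at 13.1, 10.9, 10.4 and 11.5 TPM in AsPC-1 and at 36.0, 32.4, 34.6 and 33.2 TPM in PANC-1. These 10 genes passed with adjusted p of at most 3.88e-05 and kept their signs and calls after rescaling.

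The effect of each compound over both lines was tested with the line and the other compound in the model. No gene of the 19122 passed for roseoflavin or for trametinib in limma (0.0% called in each direction), so no mitochondrial gene did. At an unadjusted p under 0.05 there were 1357 genes (7.1%) for roseoflavin and 938 (4.91%) for trametinib. Among these were 4 mitochondrial genes for roseoflavin, all tRNA genes (MT-TF -0.21, MT-TV -0.23, MT-TS1 -0.50 and MT-TR 0.16, adjusted p of at least 0.599), and 1 for trametinib (MT-TW -0.25, adjusted p 0.861). The median difference of the 37 genes was -0.05 with roseoflavin and -0.06 with trametinib, against -0.02 and 0.02 for all genes.

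With roseoflavin, each line gave its own pattern. The rRNA to mRNA ratio was 12.5% lower in AsPC-1 with roseoflavin than with vehicle, and 15.2% lower with both compounds than with trametinib, whereas in PANC-1 the same pairs gave 24.5% and 27.2% higher. A common factor cannot alter this ratio. In PANC-1 the sum of the 13 mRNAs differed by -9.25% and -10.2% in the 2 pairs, and the sum of the rRNAs by 13% and 14.3%. In AsPC-1 the mRNA sum differed by 8.66% and 0.0509%, and the rRNA sum by -4.94% and -15.2%. Rescaled over the other genes, the AsPC-1 values were 14.3% and -1.49% for the mRNAs and -0.031% and -16.5% for the rRNAs, so the sign of the mRNA sum in the second pair depended on the scaling.

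In PANC-1 all 13 mRNAs were lower with roseoflavin in both pairs, as deposited and after rescaling, while quantile normalization left 6 lower and 0 higher in the first pair and 8 lower and 0 higher in the second. MT-CYB differed by -16.0% and -15.4%, MT-CO3 by -15.2% and -16.6%, MT-ATP8 by -14.1% and -14.1% and MT-ND4 by -2.15% and -4.35%. For 12 mRNAs, all but MT-ND4, both PANC-1 libraries with roseoflavin were below both without, which 22.7% of all genes also were. MT-RNR1 differed by 25.7% and 26.1% and MT-RNR2 by 11.0% and 12.4%, whereas after quantile normalization MT-RNR1 differed by 8.6% and 7.43% and MT-RNR2 by 22.2% and 22.2%, the reverse order. On deposited TPM both rRNAs had the PANC-1 libraries with roseoflavin above those without, as did 22.9% of all genes.

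In AsPC-1, 12 of 13 mRNAs were higher with roseoflavin alone (MT-ND6 differed by -10.4%), and 6 of 13 were higher in the pair with trametinib. After rescaling these counts were 12 and 4, and quantile normalization left 4 higher and 3 lower in the first pair and 4 higher and 1 lower in the second. MT-ND3 differed by 16.1% and 6.33%, MT-ND4L by 15.6% and 0.438%, and MT-CYB by 6.51% and 10.8%. On deposited TPM, MT-ND1, MT-CO3, MT-ND3, MT-ND4L and MT-CYB had both libraries with roseoflavin above both without, against 10.6% of all genes. For MT-ND4L the margin was narrow, 42203 TPM with both compounds against 42019 TPM with trametinib, and rescaling reverses that order. MT-RNR1 differed by -8.42% and -23.9% and MT-RNR2 by -4.59% and -14.3%, and for both the libraries with roseoflavin lay below those without, against 21.6% of all genes. After rescaling, MT-RNR2 in the first pair was at 0.331%.

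**Figure D5:**
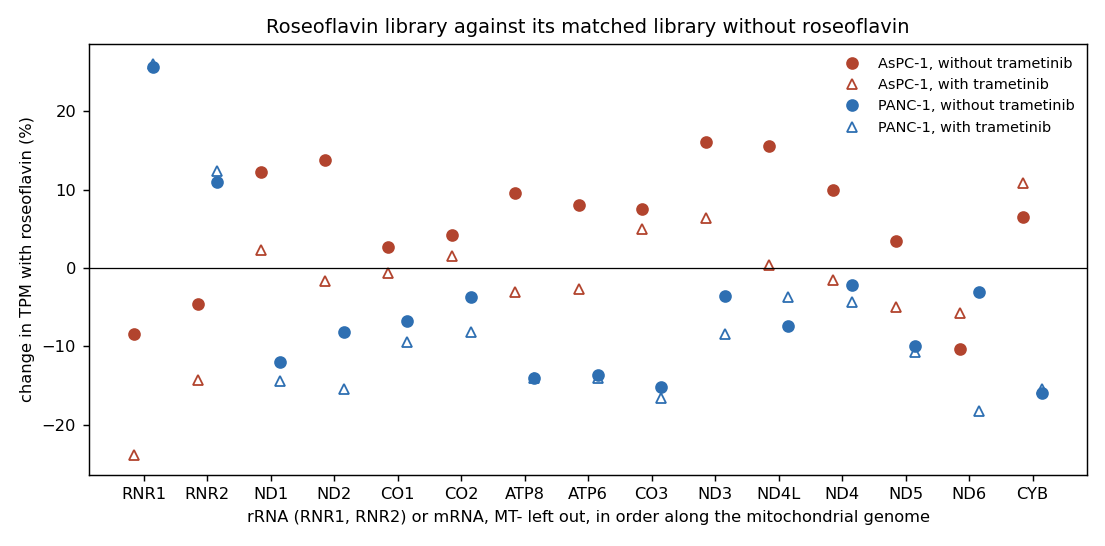
Change in TPM (y axis, %) of the 2 rRNAs and 13 mRNAs (x axis, genome order) between each library with roseoflavin and the matched library without it, red for AsPC-1, blue for PANC-1, triangles for pairs that both received trametinib. On deposited TPM all 26 mRNA points of PANC-1 lie below 0 and its rRNA points lie between 11.0% and 26.1%, while the AsPC-1 rRNA points lie below 0, with MT-RNR2 without trametinib at 0.331% after rescaling.

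Whether the 2 lines differed in the roseoflavin response was tested gene by gene as an interaction (PANC-1 minus AsPC-1). Over all genes, 0.0209% passed upward and 0.00523% downward, 5 genes in all, and none of the 37 mitochondrial genes passed in limma. At an unadjusted p under 0.05 there were 15 of the 37, against 9.97% of all genes (6.98% positive and 2.99% negative), and this number was 7 without the filter on low values, 8 without the PANC-1 library with trametinib and 9 without the PANC-1 library with both compounds. The 15 were 7 mRNAs, all negative, both rRNAs, positive, and 6 tRNA genes, of which 5 were positive. MT-CYB had the interaction farthest from 0 among the mRNAs, -0.37 (SE 0.0627, adjusted p 0.254), followed by MT-CO3 at -0.34 (SE 0.0648, adjusted p 0.295).

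The interaction of MT-RNR1 was 0.59 (SE 0.0997, adjusted p 0.254) and that of MT-RNR2 was 0.31 (SE 0.0801, adjusted p 0.384). The smallest adjusted p was that of MT-TP, 0.222, a minus-strand tRNA gene with an interaction of 1.49 (SE 0.223). MT-TP was at 164, 123, 149 and 72.4 TPM in AsPC-1 and at 138, 219, 106 and 194 TPM in PANC-1. Its AsPC-1 libraries with roseoflavin were thus the lower ones and its PANC-1 libraries with roseoflavin the higher ones. On deposited TPM, opposite directions in both pairs of each line were also seen for 6 mRNAs (MT-ND1, MT-CO2, MT-CO3, MT-ND3, MT-ND4L and MT-CYB, higher in AsPC-1 and lower in PANC-1, as were 5.32% of all genes). In the AsPC-1 pair with trametinib, MT-CO2 (1.51%) and MT-ND4L (0.438%) were the least raised of these. After rescaling only 4 mRNAs were higher in that pair, and MT-CO2 and MT-ND4L were not among them. The reverse was seen on deposited TPM for the 2 rRNAs, MT-TC, MT-TE and MT-TP, against 11.5% of all genes. After rescaling, MT-RNR2 was at 0.331% in AsPC-1 with roseoflavin alone.

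With trametinib, the rRNA to mRNA ratio differed by 3.69% and 0.479% in AsPC-1 and by -0.694% and 1.5% in PANC-1, without and with roseoflavin. The sum of the 13 mRNAs differed by 2.17% and -5.93% in AsPC-1 and by -2.9% and -3.89% in PANC-1. In AsPC-1, MT-CO1, MT-CO2 and MT-ND6 were lower in both libraries with trametinib than in both without, with 3 tRNA genes, against 13.3% of all genes. In PANC-1 this held for MT-ND4 and 7 tRNA genes, against 11.6%. Libraries with trametinib lay above those without for MT-TI alone in AsPC-1 (24.0% of all genes) and for none in PANC-1 (16.1%). For the interaction of line and trametinib, no mitochondrial gene and no other gene passed (0.0%), and 2 of the 37, MT-TI and MT-TW, had an unadjusted p under 0.05, against 7.28% of all genes.

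None of the 91 nuclear genes of the 8 lists passed for either compound or for either interaction. Those with the smallest p were MTERF4, of the family of mitochondrial termination factors, MRM1 and GTPBP3, which modify mitochondrial rRNA and tRNA, for roseoflavin (-0.18, 0.17 and -0.16, adjusted p of at least 0.659), and TRMT10C, MTERF2 and UQCRC2 for trametinib (-0.11, 0.12 and 0.10, adjusted p 0.861). For the difference between the lines with roseoflavin they were DGUOK, ATP5MC2 and HSD17B10 (0.30, 0.25 and -0.32, adjusted p of at least 0.348). HSD17B10, of the enzyme that cuts mitochondrial tRNAs, was at 25.9, 28.2, 23.8 and 27.6 TPM in AsPC-1 and at 77.4, 68.0, 81.9 and 74.7 TPM in PANC-1. For trametinib they were TFB2M, FASTKD3 and FASTK (-0.22, -0.23 and 0.16, adjusted p of at least 0.671).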

How the data were processed

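RNA was measured in 8 libraries made, per the labels' protocols, from poly(A)-selected RNA with a stranded TruSeq kit. The authors deposited 1 table of TPM per gene, per the file headers, and its 985926 blank lines were dropped. Per the submitters' processing notes, STAR 2.7.3a, HTSeq 2.0.2 and hg38 were used, with no role given; the annotation is not given in the sources used here. Samples were grouped by the line and treatment that the labels give.

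All tests used log2(TPM + 1), which understates the change of low genes. The 19122 genes with at least 1 TPM in at least 2 libraries entered linear models in limma 3.58.1 (R 4.3.3, eBayes with a trend). The model held line, roseoflavin and trametinib, and each interaction with line was an added term, as coded PANC-1 minus AsPC-1. P-values were adjusted over all genes by the Benjamini-Hochberg method at 0.05. The fits were tested on simulated data. Matched pairs are libraries of a line that differ in 1 compound, and they share libraries between comparisons. Sums and ratios over the members have no test.

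Named were all mRNAs and rRNAs, the 4 most abundant tRNA genes and those that passed, the 8 most abundant nuclear copies, and from the nuclear lists the 5 largest differences in each direction or, where none passed, the 3 smallest p. MT-TP is named for its smallest adjusted p, a choice made after its value was seen. The members and the lists were chosen with earlier results of these data known.

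Alternatives were a pseudocount of 0.1, no filter, rescaling of TPM over genes outside the mitochondrial genome, quantile normalization, no trend, no block for the line, and leaving out each library in turn. Coordinates and sequences are from GENCODE 29 (GRCh38).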

Additional observations from a re-analysis of the deposited data

Results flagged for a closer look

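On deposited TPM, 5 summary measures of the mitochondrial transcripts moved in opposite directions with roseoflavin in the lines. Both matched comparisons of AsPC-1 went one way and both of PANC-1 the other. The differences of these sums and ratios were not tested. The values are the mean log2 change in PANC-1 minus that in AsPC-1. The rRNA to mRNA ratio gave 0.55, the AsPC-1 changes being -0.19 and -0.24 and the PANC-1 changes 0.32 and 0.35. The sum of the 2 rRNAs gave 0.34. The ratio of MT-RNR2 to MT-RNR1 gave -0.29, the AsPC-1 changes being 0.059 and 0.17 and the PANC-1 changes -0.18 and -0.17. After quantile normalization this ratio turned in both PANC-1 pairs, where MT-RNR2 was higher by more (22.2% and 22.2%) than MT-RNR1 (8.6% and 7.43%). It also turned in AsPC-1 with roseoflavin alone, with MT-RNR2 at -6.57% and MT-RNR1 at -4.29%. In the AsPC-1 pair with trametinib it did not turn, with MT-RNR2 at -6.57% and MT-RNR1 at -23.5%. The sum of the 9 minus-strand genes gave 0.24, where the AsPC-1 changes were -0.27 and -0.18 and the PANC-1 changes were only 0.0017 and 0.03. Rescaling over the other genes shifts all changes of a pair by a common factor. It moved the PANC-1 mRNA sum from -9.25% and -10.2% to -11.5% and -12.5%. By the same factor both minus-strand changes in PANC-1 fall below 0. The sum of the 13 mRNAs gave -0.21, and here 1 of the AsPC-1 changes was 0.00073, which had the opposite sign after rescaling over the other genes.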

How the results depend on the processing

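Each group had 1 library of unknown depth, so the error is what the fitted line and compound terms leave over across all libraries. No analysis paired by replicate was possible because no group had replicates, and the labels give no replicate numbers. The line, which the model holds as a block, could be dropped, and 0 genes passed for either compound without it, as with it. Dropping it decides little, because the difference between the lines then enters the error. Quantile normalization reversed 6 mRNA differences between the lines: MT-CO1 (-0.21), MT-CO2 (-0.13), MT-ND4L (-0.78), MT-ND4 (-0.49), MT-ND5 (-0.27) and MT-CYB (-0.11). By construction it equalises genes of the same rank. MT-RNR1, near 0, turned to 0.37 with rescaling, 0.14 with quantile normalization, and 0.012, 0.09, 0.045 and 0.057 without the AsPC-1 library with roseoflavin, that with both compounds, and the same PANC-1 libraries. MTND4P12 turned to -0.0098 without the PANC-1 vehicle library and -0.018 without the PANC-1 library with both (range over left-out libraries -0.018 to 0.34, where it passed without the PANC-1 library with trametinib). For the line by roseoflavin interaction, MT-CO2 was 0.024 with quantile normalization, and MT-ND6 was 0.049 without the AsPC-1 library with trametinib and 0.11 without the PANC-1 one (range over left-out libraries -0.2 to 0.11).

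The number of genes that passed this interaction went from 5 to 8 with the pseudocount of 0.1, to 10 without the trend, and to 0 without the filter, with rescaling, with quantile normalization and without any single library. That for trametinib went from 0 to 4, 16, 2 and 2 with the pseudocount of 0.1, without the trend, without the filter and with rescaling. Mitochondrial genes called higher in PANC-1 went from 4 to 1 with rescaling, and were between 3 and 6 without single libraries, and those called higher in AsPC-1 between 24 and 26. Those at an unadjusted p under 0.05 for the line by roseoflavin interaction went from 15 to 7 without the filter, and were between 8 and 17 without single libraries. Without the filter, the calls between the lines of MT-CO1 (adjusted p 0.111), MT-CO2 (0.116), MT-ND4 (0.441), MT-ND4L (0.669), MT-CYB (0.0965), MT-TC (0.0598) and MT-TS2 (0.0726) were lost. The cause of these shifts was not tested.

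All 37 genes took 41.2% of TPM in the AsPC-1 vehicle library and 25.6% in that of PANC-1. Counting the 13 mRNAs alone gave 35.2% and 22.4%, and taking the 37 genes over a total without nuclear ribosomal RNA genes and unnamed genes gave 45.0% and 28.8%. The vehicle share of MT-ATP8 was 18.8% and 14.0% of all mitochondrial TPM, and 6.26% and 4.28% of mRNA bases, an alternative chosen after seeing the data. The vehicle rRNA to mRNA ratio was 0.0981 in AsPC-1 for MT-RNR2 alone, and 1.44 and 1.05 in the 2 lines against the median mRNA.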
